A study of Mus musculus with 19 samples.

Results

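Of 12330 CpG-rich start sites on the mouse autosomes, 308 (2.5%) had no SOX3 peak nearby in testis at postnatal day 7 (P7). These start sites belonged to 284 genes of the 10744 genes with a CpG-rich start site, and 269 genes (2.5%) had no CpG-rich start site with a peak. They were chosen by 2 values, an observed/expected CpG ratio of at least 0.635 in the 1000 bp around a RefSeq curated start site and no peak within 2 kb of it in either of 2 SOX3 chromatin immunoprecipitation sequencing (ChIP-seq) peak lists. The lack of a peak is therefore the rule of selection and not a result. The comparison group was the 11159 CpG-rich start sites (90.5%) with a peak in both lists, from 9706 genes, and the remaining CpG-rich sites had a peak in list 1 only (754) or in list 2 only (109).

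The series mapped transcription factors and histone marks in mouse testis and spermatogonia, and 4 of its 19 samples were used here, namely 2 SOX3 ChIP-seq and 2 SOX3 ChIP-nexus peak lists. All 4 samples were whole testis at P7, with no allele or treatment named in the labels, immunoprecipitated with SOX3 antibodies. The labels name both sc-101155 and AB5772 for every sample, so a difference between antibodies cannot be told apart from one between the replicate lists. According to the methods, seminiferous tubules of 3 mice at P7 to P8 were used for each transcription factor ChIP. SOX3 is an SRY-box transcription factor made in undifferentiated spermatogonia, so a missing peak in this bulk tissue cannot tell apart few cells with SOX3 at a promoter from little SOX3 per cell. The ChIP-seq lists held 58351 and 38832 peaks with q scores, on the scale of −10log10 of the false discovery rate, above 30. The lists themselves carry no read counts. Read totals are stated with the study, and the second ChIP-seq library, which gave fewer peaks, was the deeper of the pair. In list 1 alone 417 CpG-rich start sites (3.38%) lacked a peak and in list 2 alone 1062 (8.61%), a mean of 6.0% ± 3.70 (SD, n = 2 lists).

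Most mammalian promoters lie in CpG islands, stretches of DNA that keep their CpG dinucleotides because they stay free of methylation in the germ line. Islands of widely expressed genes are usually open and nucleosome-depleted, whereas islands of developmental regulators are typically held by Polycomb complexes in cells that do not use the gene. A smaller set of CpG-rich promoters belongs to multicopy genes and to gene clusters in which only some promoters are used in a given cell.

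The 200 bases upstream of 6 of these start sites are printed below, followed by 3 promoters with a peak in both lists. They are shown to let the CpG content of the gene groups described next be read directly, with every CpG in capitals and all other bases in lower case (mm10 reference sequence, written 5′ to 3′ on the strand of the gene). Bmp2 had the highest CpG ratio of the promoters without a peak, Hoxd13, Pou3f2 and Sox7 stand for the developmental transcription factors, Rn5s for the 5S ribosomal RNA array and Gm3255 for a duplicated block of chromosome 17.
Bmp2 (chr2:133551959-133552158, plus strand): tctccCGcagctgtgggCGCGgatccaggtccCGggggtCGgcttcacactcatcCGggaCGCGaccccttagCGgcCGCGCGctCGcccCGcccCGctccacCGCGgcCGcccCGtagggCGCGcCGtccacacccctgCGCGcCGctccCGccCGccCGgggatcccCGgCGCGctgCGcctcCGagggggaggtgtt
Hoxd13 (chr2:74668025-74668224, plus strand): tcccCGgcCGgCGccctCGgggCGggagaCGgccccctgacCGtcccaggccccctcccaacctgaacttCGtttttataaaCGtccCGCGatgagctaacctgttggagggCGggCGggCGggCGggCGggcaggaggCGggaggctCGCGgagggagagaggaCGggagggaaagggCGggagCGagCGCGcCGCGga
Pou3f2 (chr4:22488367-22488566, minus strand): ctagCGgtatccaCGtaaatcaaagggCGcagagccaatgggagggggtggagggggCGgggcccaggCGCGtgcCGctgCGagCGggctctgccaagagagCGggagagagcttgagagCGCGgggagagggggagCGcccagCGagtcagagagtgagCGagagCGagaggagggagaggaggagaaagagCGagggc
Sox7 (chr14:63943506-63943705, plus strand): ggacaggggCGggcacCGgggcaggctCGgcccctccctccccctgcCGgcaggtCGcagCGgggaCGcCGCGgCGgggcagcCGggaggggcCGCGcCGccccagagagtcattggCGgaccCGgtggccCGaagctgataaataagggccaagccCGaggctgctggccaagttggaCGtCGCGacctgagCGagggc
Rn5s (chr8:123598277-123598476, minus strand): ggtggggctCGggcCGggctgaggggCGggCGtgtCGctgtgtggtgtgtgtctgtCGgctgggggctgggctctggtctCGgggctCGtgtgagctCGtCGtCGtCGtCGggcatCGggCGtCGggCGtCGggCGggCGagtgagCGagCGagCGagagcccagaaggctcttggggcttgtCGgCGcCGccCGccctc
Gm3255 (chr17:14993178-14993377, minus strand): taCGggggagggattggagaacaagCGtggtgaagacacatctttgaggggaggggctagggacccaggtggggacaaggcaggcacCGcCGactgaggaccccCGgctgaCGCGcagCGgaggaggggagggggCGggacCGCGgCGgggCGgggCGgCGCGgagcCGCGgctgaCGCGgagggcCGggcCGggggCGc
The 3 compared promoters belong to Foxo1, a forkhead factor of undifferentiated spermatogonia, Sox12, a further SRY-box gene, and Rplp1, which encodes a protein of the large ribosomal subunit.
Foxo1 (chr3:52268137-52268336, plus strand): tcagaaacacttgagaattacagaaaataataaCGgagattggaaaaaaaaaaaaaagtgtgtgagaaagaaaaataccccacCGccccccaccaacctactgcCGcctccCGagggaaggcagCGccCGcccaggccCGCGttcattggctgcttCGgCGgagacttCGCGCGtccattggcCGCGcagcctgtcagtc
Sox12 (chr2:152398047-152398246, minus strand): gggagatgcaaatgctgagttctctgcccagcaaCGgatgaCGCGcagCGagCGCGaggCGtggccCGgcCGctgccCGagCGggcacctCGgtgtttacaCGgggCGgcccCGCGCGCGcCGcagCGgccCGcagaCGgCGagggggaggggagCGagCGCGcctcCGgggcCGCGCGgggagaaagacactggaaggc
Rplp1 (chr9:61914511-61914710, minus strand): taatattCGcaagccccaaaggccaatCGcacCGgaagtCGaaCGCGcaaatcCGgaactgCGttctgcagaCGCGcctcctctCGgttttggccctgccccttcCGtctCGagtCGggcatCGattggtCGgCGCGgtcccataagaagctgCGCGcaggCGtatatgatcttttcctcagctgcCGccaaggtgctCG
The 6 promoters without a peak held 33 CpGs (Bmp2), 26 (Hoxd13), 17 (Pou3f2), 22 (Sox7), 27 (Rn5s) and 23 (Gm3255) in these 200 bases. The promoters of Foxo1, Sox12 and Rplp1 held 15, 30 and 23, so the counts of the printed promoters with and without a peak overlapped.

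Developmental transcription factors were found without a peak more often than CpG-rich genes as a whole. Over 8 lists of lineage regulators (HOX, other homeobox, PAX and POU, forkhead, T-box, SOX, GATA and basic helix-loop-helix genes), 23 of 199 CpG-rich genes (11.6%) had no peak at any CpG-rich start site, 69 (34.7%) had one in a single list and 107 (53.8%) in both. Over all CpG-rich genes the shares were 2.5%, 7.16% and 90.3%. In list 1 alone 38 of the 199 regulators (19.1%) lacked a peak, beside 3.36% of all genes, and in list 2 alone 77 (38.7%), beside 8.78%. The mean over the lists was 28.9% ± 13.9 for the regulators and 6.07% ± 3.83 for all genes (SD, n = 2 lists), higher for the regulators in both lists. At CpG ratios of 0.75 or more, 15 of 125 regulators (12%) lacked a peak, beside 1.5% of all such genes. Sequence around the regulators was mostly unique, with 99.3% unique 50-mers on average and no less than 97.2% at those without a peak.

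**Figure D1:**
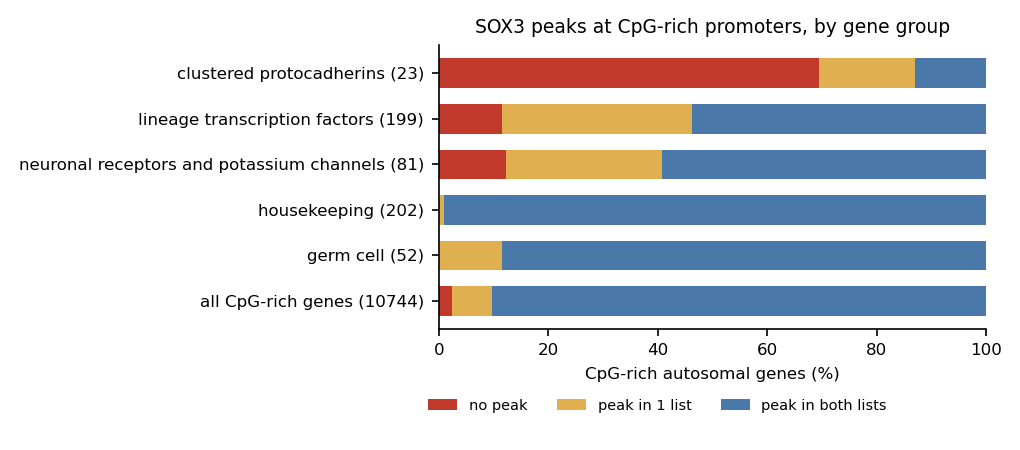
Stacked bars give the percent of CpG-rich autosomal genes with no SOX3 peak within 2 kb (red), a peak in 1 list (yellow) and a peak in both lists (blue), with the number of genes in brackets. No peak was found at 69.6% of clustered protocadherin genes, 12.3% of neuronal receptor and potassium channel genes and 11.6% of lineage transcription factor genes, beside 2.5% of all CpG-rich genes and none of the housekeeping and germ cell genes.

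A peak often lay just outside the 2 kb window of these regulators. The nearest peak of either list was within 5 kb of 13 of the 23 genes (56.5%), at a median distance of 4396 bp over the 23. Each gene was counted by its closest site. Counted by start site, a peak lay within 5 kb of 14.9% of all 308. Among those with at least 50% unique 50-mers it did for 43 of 235. With a window of 5 kb the share without a peak fell to 10 of 199 (5.03%), beside 2.11% of all genes. Where both lists had a peak within 2 kb, that peak covered the start site of 75.7% of the regulator sites in list 1 and 61.7% in list 2, beside 98.7% and 95.3% of all CpG-rich sites with peaks in both. Their median q scores were 77.2 and 42.4, beside 240 and 96.7.

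Among HOX cluster genes, which set position along the body axis, 3 of 25 had no peak. The nearest peak to Hoxd13, a gene of the distal limb, was 11325 bp away in list 1 and 4396 bp in list 2. Hoxa11, active in the limb and the reproductive tract, lay 10976 and 5145 bp from one. Hoxa2, a regulator of hindbrain and branchial arch identity, lay 3931 and 10763 bp away. Hoxd8, by contrast, had peaks across its start site, scored 167 and 77.7. The antisense transcript Hoxa11os started within Hoxa11, 567 bp from the start site of that gene, and likewise had no peak, at a CpG ratio of 0.928.

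Of the 82 homeobox genes outside the HOX clusters, 9 had no peak, and in this list 43.9% had one in a single list. Msx2, a regulator of skull and limb development, was 2658 and 7262 bp from the nearest peak in lists 1 and 2. Onecut2, a cut-homeobox factor of liver and neurons, was 2298 and 4634 bp from one. Irx4, a regulator of the cardiac ventricle, was far from any peak in both lists, at 49624 and 49691 bp. En1, which patterns the midbrain and hindbrain, was 12172 and 68361 bp away. Peaks in both lists lay at Gbx1 (q scores of 51.0 and 39.5) and Tlx3 (34.6 and 43.2), all far below the medians of 240 and 96.7 over CpG-rich sites with peaks in both.

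Of the 13 SOX genes, 3 had no peak, a share of 23.1%. Sox1, a gene of the early neural plate in the same subgroup as Sox3, was 3418 bp from the nearest peak in list 1 and 26926 bp in list 2. Sox17, a regulator of endoderm and of arterial endothelium, was 3370 and 5129 bp from one. Sox7, its close relative, was 30043 and 29005 bp away. Sox12 had some of the strongest peaks of any named gene (q scores of 755 and 349) and Sox11 weaker ones (80.4 and 66.3).

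Forkhead genes lacked a peak at 3 of 32, the T-box genes at 2 of 7 and the PAX and POU genes at 1 of 14. Foxf2, a factor of gut and cranial mesenchyme, was 5874 and 6457 bp from the nearest peak, and Foxd3, a neural crest and pluripotency factor, 5076 and 2354 bp. The T-box gene T, which encodes brachyury and also stood in the list of undifferentiated spermatogonia factors, was 4236 and 36834 bp away, and Tbx15 12754 and 111793 bp. Pou3f2, a neural POU factor, was 9121 and 129935 bp away. The proneural gene Neurog1 was 13910 and 4090 bp from a peak and Bhlhe23 was 2910 and 2482 bp from one, as 2 of 21 basic helix-loop-helix genes without a peak. None of the 5 CpG-rich GATA genes lacked a peak in both lists (which allows a share of up to 60%), although in each list alone 1 of the 5 did. Gata4, which is made in Sertoli and Leydig cells of the testis, had q scores of 278 and 124.

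Receptor, channel and ligand genes of the nervous system and of development were also found without a peak. Neurotransmitter receptor genes had no peak at 6 of 40 (15%) and potassium channel genes at 4 of 41 (9.76%). Together 12.3% of 81 such genes lacked a peak, 14.8% in list 1 alone and 38.3% in list 2 alone, a mean of 26.5% ± 16.6 (SD, n = 2 lists). Over all CpG-rich genes these shares were 2.5%, 3.36% and 8.78%, with a mean of 6.07% ± 3.83. Of the 10 genes without a peak, 8 were over 10 kb from the nearest one and 1 was within 5 kb. Gabra5, which encodes a GABA-A receptor subunit, was 80721 and 20019 bp from the nearest peak in lists 1 and 2. The dopamine receptor genes Drd2 and Drd5 were 62944 and 46068 bp and 11633 and 12419 bp away. Grin2a, for an NMDA receptor subunit, was 86754 and 75449 bp away, whereas Grin1, for the obligatory subunit of that receptor, had peaks with q scores of 42.2 and 64.8.

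The 4 potassium channel genes without a peak were inward rectifiers and tandem-pore channels. Kcnj11, whose channel couples ATP to insulin release, was 3734 and 2624 bp from a peak, and Kcnj6, for a G protein-gated channel, 24430 and 25369 bp. Kcnk15 was 7524 and 13791 bp away and Kcnk9 71388 and 155764 bp. Among FGF, BMP and GDF ligand genes 2 of 20 lacked a peak. Bmp2, a bone morphogenetic protein gene, had the highest CpG ratio of the 308 sites (1.08) and a list 1 peak 2247 bp away, with the list 2 peak at 40029 bp. Gdf6 was 7036 and 73204 bp from a peak. None of 13 WNT ligand genes (which allows a share of up to 23.1%) and none of 11 collagen genes (up to 27.3%) lacked a peak in both lists. In list 1 alone 7.69% of the WNT and 0% of the collagen genes did, beside 3.36% of all genes. In list 2 alone 15.4% and 27.3% did, beside 8.78%.

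**Figure D2:**
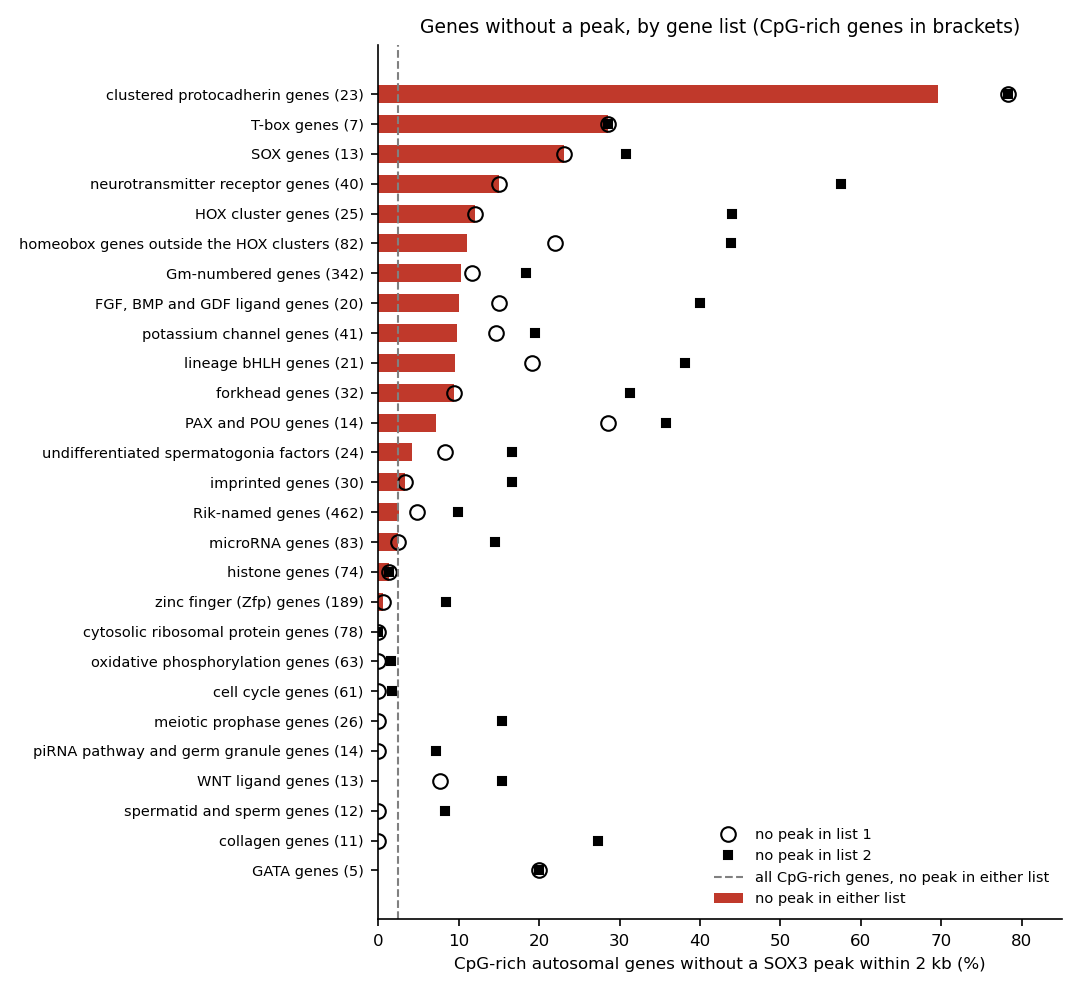
Bars give, for each gene list, the percent of CpG-rich autosomal genes with no SOX3 peak within 2 kb in either list, open circles the percent without one in list 1 and squares in list 2, with the number of genes in brackets and the value over all genes (2.5%) as a dashed line. Of the 27 lists, 15 lie above the line, led by the clustered protocadherins (69.6%), T-box (28.6%) and SOX genes (23.1%), and list 2 is at or above list 1 in every list plotted.

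Clustered protocadherin genes stood farthest from the background. These genes encode cell-surface proteins of neurons, lie in 3 tandem groups on chromosome 18, and each has its own promoter in front of a variable exon. Of the 23 that were CpG-rich, 16 (69.6%) had no peak, and in each list alone 18 (78.3%) had none. All of Pcdha1 to Pcdha12 were among the promoters without a peak, and with 3 overlapping Gm-numbered genes they formed a run of 15 genes over 89945 bp (chr18:36930285-37020230, mm10). Within that run the CpG ratio was 0.638 to 0.803 and the GC content 42.4% to 48.2%. The nearest peak was 123227 to 169655 bp away in list 1 and 128102 to 218047 bp in list 2. Unique 50-mers made up 83.3% to 94.7% of their surroundings.

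The other protocadherin groups differed in CpG content. None of the 22 Pcdhb genes was CpG-rich (ratios of 0.158 to 0.556), and 21 of them had no peak. Of the 22 Pcdhg genes, 10 were CpG-rich and 11 had no peak at any start site. Pcdhga8 was 18108 bp from the nearest peak in list 1 and 2946 bp in list 2. Peaks in both lists lay at Pcdhga11 (q scores of 71 and 31.2), at Pcdhgc3 (141 and 111) and, named after the values were seen, at Pcdhgc4. The upstream 200 bases of neighbouring Pcdha promoters were not copies of each other, with 48.2% identity between Pcdha6 and Pcdha8 and 50% between Pcdha8 and Pcdha10.

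**Figure D3:**
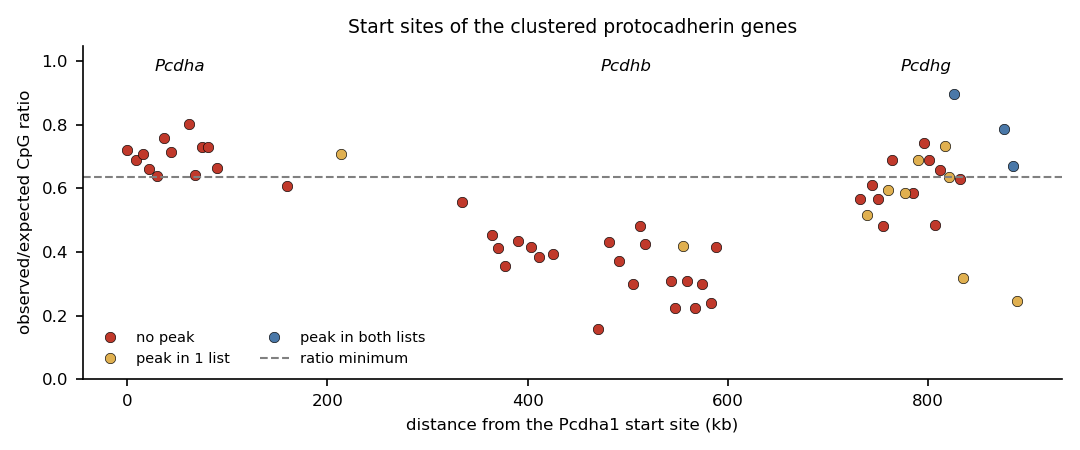
Each point is a start site of a clustered protocadherin gene at its distance in kb from the Pcdha1 start site, with its observed/expected CpG ratio on the vertical axis and the ratio minimum of 0.635 as a dashed line. Points are red without a peak, yellow with a peak in 1 list and blue with peaks in both, and the Pcdha1 to Pcdha12 sites at the left are all red, while the 3 blue sites lie in the Pcdhg group at the right.

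No gene of the housekeeping lists was among the promoters without a peak. All 78 cytosolic ribosomal protein genes had peaks in both lists. Over these, 63 oxidative phosphorylation genes and 61 cell cycle genes together, 200 of 202 had peaks in both lists and none lacked one in both, which allows a share of up to 1.49%. Their median q scores were 277 and 113. Rplp1 had q scores of 320 and 165, and the tumour suppressor gene Rb1 516 and 142. Of 52 germ cell genes (meiotic prophase, piRNA pathway, and spermatid lists), 0 lacked a peak in both lists. This allows a share of up to 5.77%, so it cannot be told apart from the 2.5% of all CpG-rich genes. In list 2 alone 6 of the 52 (11.5%) lacked a peak, beside 8.78% of all genes. Tdrd7, a germ granule gene, had q scores of 331 and 131.

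Of the other lists, the zinc finger (Zfp) genes had 1 of 189 without a peak (0.529%), beside 2.5% of all CpG-rich genes. This was Zfp433, which lay in sequence with 3.79% unique 50-mers. Histone genes had 1 of 74 (1.35%), the transcribed pseudogene H2af-ps2. The replication-dependent gene H4c1 had the highest q scores of any gene named here, 1112 and 475. Among 30 imprinted genes 1 lacked a peak (3.33%), Nap1l5, at 22746 and 74972 bp from the nearest. Among 24 undifferentiated spermatogonia factors 1 did (4.17%), T. Both shares lay above the 2.5% of all CpG-rich genes, each through a single gene. Of 83 microRNA genes, 2 lacked one (2.41%, close to the 2.5% of all). These were Mir291a and Mir292 of a cluster expressed in pluripotent cells, where the annotated start is that of the hairpin and not of the primary transcript. None of the 1104 olfactory receptor genes and none of the 50 keratin genes in the lists was CpG-rich, so they could not enter the comparison.

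Sequence that occurs more than once in the genome made up a second part of the promoters without a peak. Uniqueness was measured as the percent of 50-mers, taken every 10 bp over the 4000 bp around a start site, that occur once in mm10, since reads were 50 bases long. It averaged 75.7% at the sites without a peak and 97.8% at those with a peak in both lists. The difference between sites without and with a peak was −16.1 points in list 1 alone and −7.23 in list 2 alone, a mean of −11.7 ± 6.29 (SD, n = 2 lists). Of the 111 CpG-rich sites with less than 50% unique 50-mers, a limit chosen after the values were seen, 73 had no peak (65.8%), 16 a peak in 1 list and 22 in both. Without a peak were 91.5% of the 59 sites under 10% and 36.5% of the 52 sites from 10% to 50%, beside 1.91% of the 4610 sites at 100%. According to the methods, reads that fit several places were assigned to one of them at random. The part of this step in the missing peaks was not tested.

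**Figure D4:**
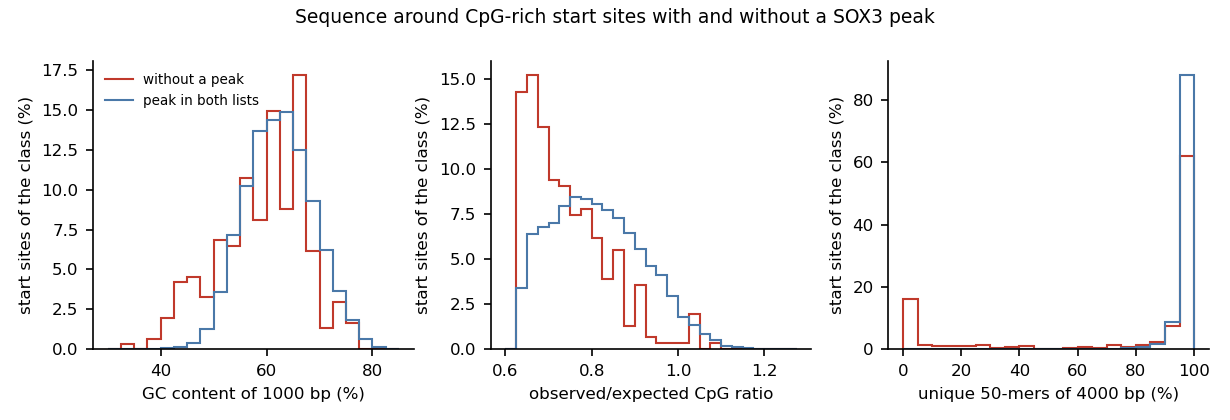
Histograms give the percent of start sites without a peak (308, red) and with a peak in both lists (11159, blue) by GC content, by observed/expected CpG ratio and by unique 50-mers. The red curves have a shoulder below 50% GC (46 sites), more sites near the ratio minimum of 0.635 and a group at the left of the third panel with almost no unique 50-mers.

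The 5S ribosomal RNA genes formed the run with the most genes. This tandem array is transcribed by RNA polymerase III and supplies the smallest RNA of the large ribosomal subunit. On chromosome 8, 23 annotated 5S genes, in a row when only CpG-rich genes are counted, had no peak over 83142 bp (chr8:123538904-123622046, mm10). Rn5s was among them. The start sites of these 23 lay a median of 2542.5 bp apart, a spacing that leaves out members of the array that were not CpG-rich. Their unique 50-mers were at 0% to 13.9% and their CpG ratios from 0.635 to 0.672, close to the minimum. A further 9 start sites of the array fell below the ratio minimum, and all 9 also had no peak. The nearest peaks lay 6636 to 50809 bp away in list 1 and 6143 to 48087 bp in list 2. The 200 upstream bases of the other 22 genes matched those of Rn5s with a median identity of 99.0% (89.5% to 100%). Over all annotated classes, all 24 ribosomal RNA start sites lacked a peak.

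Smaller runs lay in duplicated blocks. On chromosome 17, 8 genes (chr17:14978812-15041640), among them Gm3255, Gm52298, Ermard and Tcte3, had no peak over 62828 bp and at most 1.26% unique 50-mers. The upstream 200 bases of Gm3255 and Gm52298 were identical. On chromosome 12 Fam177a, Srp54b, Fam177a2 and Srp54c formed a run over 105849 bp, with identical upstream bases at Fam177a and Fam177a2. On chromosome 14 Slc25a37, which encodes the mitochondrial iron importer mitoferrin, stood in a run with Gm16677, Entpd4 and Entpd4b in which no 50-mer was unique. The sequences upstream of Entpd4 and Entpd4b were identical, so reads from these bases fit both places. Among the sites with less than 50% unique 50-mers and peaks in both lists, 6 belonged to histone genes.

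Runs of neighbours without a peak were common among these promoters. The nearest CpG-rich start site more than 4000 bp away also lacked a peak for 69 of the 308 (22.4%, exact 95% interval 17.9 to 27.5) and for 184 of 11159 sites with a peak in both lists (1.65%, 1.42 to 1.90). The intervals cover counting error only, and neighbouring sites are not independent. The difference was 19.2 points in list 1 alone and 12.4 in list 2 alone. Of the 308, 67 lay in 8 runs of 3 or more genes, 31 in 15 runs of 2 genes, and 210 stood alone. These runs were counted without the 4000 bp minimum. Some runs of 2 genes were close pairs whose windows mostly overlapped, such as Hoxa11os and Hoxa11 (567 bp apart) and Mir291a and Mir292 (270 bp). The sites of such a pair are not separate cases. At sites with at least 50% unique 50-mers the neighbour lacked a peak for 20 of the 235 without a peak (8.51%), beside 1.64%. Of these 20 sites, 15 were the Pcdha run, and the rest lay elsewhere in the protocadherin cluster or at Tfap2d and Tfap2b. At sites with at least 95% unique 50-mers the difference was 1.27 points. One run in unique sequence, named after its values were seen, was the pair of AP-2 transcription factor genes Tfap2d and Tfap2b on chromosome 1, at 97.5% to 99.0% unique 50-mers. By chromosome, 7.82% of the CpG-rich sites of chromosome 18 and 0.470% of those of chromosome 11 had no peak. Of the 29 sites without a peak on chromosome 18, 19 lay in the protocadherin cluster.

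Gene type differed with uniqueness. Protein-coding genes held 244 of the 308 start sites (79.2%, exact 95% interval 74.3 to 83.6), beside 92.8% (92.3 to 93.3) of those with a peak in both lists. The difference was −11.8 points in list 1 alone and −6.49 in list 2 alone. At sites with at least 50% unique 50-mers the shares were 88.9% and 92.9%, and at sites with at least 95% the difference turned to 1.21 points in favour of the sites without a peak. Long noncoding RNA genes had no peak at 24 of 772 sites (3.11%), close to the 2.5% of all CpG-rich sites, and transcribed pseudogenes at 12 of 48 (25%). Gm-numbered genes lacked a peak at 35 of 342 (10.2%) and Rik-named genes at 12 of 462 (2.60%).

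GC content was lower without a peak, and sites below 50% GC took a larger share. The median was 60.4% without a peak and 62.3% with a peak in both lists. In list 1 alone the difference was −1.5 points and in list 2 alone −0.8, a mean of −1.15 ± 0.495 (SD, n = 2 lists), and it was −0.2 when only peaks with q scores above 60 counted. Below 50% GC lay 46 of the 308 sites (14.9%), beside 206 of 11159 (1.85%). Of the 296 CpG-rich sites below 50% GC 15.5% had no peak, against 1.21% to 3.06% in the bins of higher GC. The protocadherin cluster gave 19 of these 46 sites, all its members without a peak, with a median GC content of 46.1%. Without the cluster the median of the 216 remaining sites with at least 50% unique 50-mers was 60.35%. Repeat-masked bases made up a median of 14.6% of the 4000 bp, beside 16.8%.

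The CpG ratio, which the rule used only as a minimum, was lower too. Its median was 0.720 without a peak and 0.805 with a peak in both lists. The difference was −0.0767 in list 1 alone and −0.0730 in list 2 alone. The share of sites without a peak was 5.66% at ratios from 0.635 to 0.7 and 0.902% at 0.9 or more. The median number of CpGs in 1000 bp was 66 beside 76. Even so, Bmp2, Klf14 (1.03, a Krüppel-like factor gene with its nearest peaks 52823 and 61519 bp away) and Bhlhe23 (0.944) reached high ratios in fully unique sequence. Of the 10 genes with the highest ratios among those without a peak at any CpG-rich start site, 6 (Ccl21b, 4930578G10Rik, Cntfr, BC107364, Gm3255 and Gm52298) lay in sequence with less than 50% unique 50-mers.

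Of 7 short promoter motifs, 5 stood in a smaller share of the promoters without a peak. Motifs were searched as exact letters on both strands in the 300 bp from 250 bp upstream to 50 bp downstream of the start site, and matches of different motifs could overlap. The letters CCGGAA, the core of sites for ETS-family activators, stood in 12% of the promoters without a peak, in 31.1% of those with a peak in both lists and in 29.4% of all CpG-rich promoters. The difference was −19.3 points in list 1 alone and −16.3 in list 2 alone, a mean of −17.8 ± 2.09 (SD, n = 2 lists). At sites with at least 50% unique 50-mers it was 9.36% beside 31.1%. TGCGCA, part of the site of the respiratory factor NRF1, stood in 7.79% beside 16.3% (15.8% of all), the GC box GGGCGG in 63.3% beside 74.6% (73.9%) and the cyclic AMP response core TGACGT in 9.42% beside 13.4% (12.9%). These 4 motifs each hold a CpG, and the promoters without a peak held fewer CpGs, but the part of CpG number in their shares was not tested. CCAAT, which holds none, stood in 26.3% beside 36.4% (35.9%).

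The other two motifs stood in a larger share. TATAAA, the TATA box core, stood in 10.1% of the promoters without a peak (exact 95% interval 6.94 to 14.0), beside 5.45% with a peak in both lists and 5.76% of all. AACAAT, the core of SOX sites, stood in 7.47% (4.79 to 11) beside 4.46% and 4.53% of all. The SOX core difference was 1.76 points in list 1 alone and 1.02 in list 2 alone, a mean of 1.39 ± 0.527 (SD, n = 2 lists). Both motifs consist mostly of A and T, and 14.9% of the sites without a peak lay below 50% GC, beside 1.85%. The part of base content in the shares of these motifs was not tested.

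Promoters shared by divergent genes were scarce. A start site on the opposite strand within 1000 bp upstream marked 14 of the 308 sites as bidirectional (4.55%, exact 95% interval 2.51 to 7.51), beside 2541 of 11159 (22.8%, 22.0 to 23.6). The difference was −17.9 points in list 1 alone and −14.1 in list 2 alone, a mean of −16.0 ± 2.68 (SD, n = 2 lists). It held in unique sequence, with 3.40% beside 22.8% at sites with at least 50% unique 50-mers. The genes themselves were longer, with a median of 34244 bp beside 24330.5 bp, and of 54332 bp beside 24347.5 bp in sequence with at least 50% unique 50-mers. With GENCODE start sites the sign of the length difference turned, to −9286 bp. A median of 1 other CpG-rich gene lay within 100 kb, beside 2. Sequence in CpG-rich windows of 200 bp was totalled over 5 kb either side, and the windows need not adjoin. This total reached 2000 bp or more at 14.3% of the sites without a peak and 5.4% of those with one in both lists. At sites with at least 50% unique 50-mers the shares were 7.66% and 5.39%.

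The distance to the nearest peak, which the rule bounded below, ranged widely. Its median was 32047 bp in list 1 and 42644.5 bp in list 2. The nearest peak of either list lay within 5 kb of 46 of the 308 sites and over 100 kb from 76. The 46 near peaks had a median q score of 41.1, beside 41.4 over all peaks of list 1 and 39.5 over those of list 2, and 5 of them were above 60. Just outside the window lay the peaks nearest to Tmem30b (2032 bp), Trp73 (2079 bp) and Gm33167 (2213 bp), and just inside it, and so not counted here, those of Rspo3 (1994 bp), Uncx (1922 bp) and Cdx2 (1920 bp). Among start sites without a peak, those just above the ratio minimum were Tescl, n-R5s121 and Plce1, and those just below it n-R5s138, D7Ertd143e and Dpp10. The sites on both sides were picked for having no peak, so their lack of one is not a result. Of the 284 genes, 15 had a peak at another CpG-rich start site and 8 at a CpG-poor one, and 264 had none at any annotated start site.

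**Figure D5:**
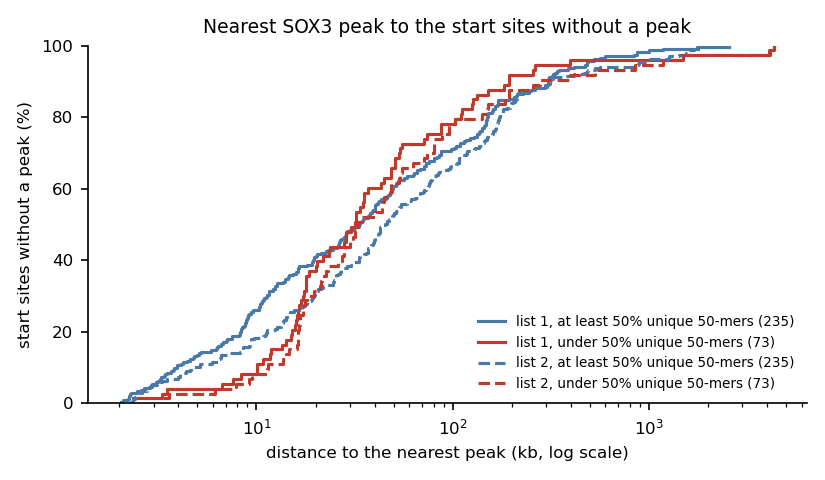
Cumulative curves give the percent of start sites without a peak by the distance in kb (log scale) from the start site to the nearest peak of list 1 (solid) and list 2 (dashed), for 235 sites with at least 50% (blue) and 73 sites with under 50% unique 50-mers (red). All curves start above 2 kb, and their medians lie between 31728 and 45435 bp.

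CpG-poor start sites were without a peak far more often, 9687 of 17889 (54.2%), so that over all 30219 autosomal start sites 33.1% had none. Within the CpG-rich sites, peaks at those with a peak in a single list had a median q score of 53.0 for list 1 only and 39.2 for list 2 only, beside 240 and 96.7 at sites with peaks in both.

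ChIP-nexus, in which an exonuclease trims the precipitated DNA toward the bound protein, gave a separate readout with few peaks, 110 in list 1 and 18 in list 2. By the read totals stated with the study, both ChIP-nexus libraries held far fewer unique reads than the ChIP-seq libraries. A missing ChIP-nexus peak therefore says little about whether SOX3 was at a site. Of the 308 sites, 3 had a peak of ChIP-nexus list 1 within 2 kb, beside 44 of the 11159 sites with ChIP-seq peaks in both lists. The peaks covered the start sites of Rnu1b2 and Rnu1b6, which encode U1 spliceosomal RNA, with folds over background of 19.3 and 9.67 and −log10 q values of 42.9 and 16.6. The third lay 1466 bp from BC107364, a neighbour of Rnu1b6, with a fold of 16.4 and a −log10 q of 33.8. All 3 sites had at most 18.2% unique 50-mers. List 2 of ChIP-nexus touched none of the 308 (which allows a share of up to 0.974%) and none of the other CpG-rich sites, so the hits rest on 1 of 2 samples.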

How the data were processed

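Peak lists of 2 SOX3 ChIP-seq and 2 SOX3 ChIP-nexus samples from P7 testis were analysed, and the other samples of the series were not analysed here. According to the methods, the authors aligned reads to mm10 with Novoalign, placing reads that fit several places at random, removed duplicates with Picard, and called peaks per sample against input with USeq for ChIP-seq (score above 30) and MACS2 2.1.1 for ChIP-nexus. No header is given in the deposited ChIP-seq lists, so column names were inferred, namely a p score and a q score on the −10log10 scale and a log2 ratio of ChIP over input, and their lowest q scores were 30.0003 and 30.0289. The deposited ChIP-nexus lists give a score, a fold over background and −log10 p and q values. The lists hold no read counts, so no value here was scaled by depth, which the study states per library.

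RefSeq curated transcripts of mm10 (45755 transcripts, 26180 genes) gave 31647 distinct start sites. The CpG ratio is the number of CpGs times the length over the product of the C and G counts. Distances run from the start site to the nearest base of a peak. A gene counted as without a peak when none of its CpG-rich start sites had one. Uniqueness, GC content, motifs and neighbours were computed from the mm10 reference, and repeats from its soft mask. Scripts used Python 3.11.15, numpy 2.4.6, pandas 2.3.3, numba 0.67.0, scipy 1.17.1, matplotlib 3.10.9 and bedtools 2.31.1. Peak calls at all 12330 sites were checked with bedtools, and the classification was tested on simulated data (1000 of 1000 planted sites recovered).

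The members and the 29 gene lists were chosen with earlier results of these data known. Counts and shares are descriptions with no test, since the peak lists chose the sites. Each list alone gave a value, shown with mean ± SD over the 2 lists, an SD between samples that the methods describe as biological replicates and whose animals the labels do not name. Shares have exact Clopper-Pearson 95% intervals, and a count of 0 of n allows up to 3 of n. Both cover counting error only. Named genes were, by rule, up to 4 genes without a peak and 2 with peaks in both lists per gene list by highest CpG ratio, the 10 genes without a peak of highest ratio, the genes of the 6 longest runs, the sites at the edges of the rule, up to 3 genes of the 10 commonest name roots, and sites touched by ChIP-nexus. Alternatives were another q score limit, window, CpG minimum, CpG window, annotation (GENCODE 21), 1 site per gene, a uniqueness minimum, overlapping peaks and each list alone. Sequences are from the reference (GRCm38, mm10). One gene that the rule names is not reported here.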

Additional observations from a re-analysis of the deposited data

How the results depend on the processing

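Each result was recomputed under the alternatives, and of the 110 values for the main results 71 stayed close, 37 moved and 2 reversed. Counts stayed close within 1.5 times, and shares and differences within 1 SD between the 2 lists. With only peaks of q score above 60, 1286 sites (10.4%) had no peak, and the differences between sites without a peak and with peaks in both lists were −0.2 points for GC content, −6.82 for protein-coding genes, −3.575 for repeats, −5.52 for unique 50-mers and 13.3 for the neighbour share. With each list alone, the number ranged from 417 to 1062, the share from 3.38% to 8.61%, and the differences from −1.5 to −0.8 (GC), −11.8 to −6.49 (protein-coding), −2.45 to −2.275 (repeats), −16.1 to −7.23 (unique 50-mers), 12.4 to 19.2 (neighbour) and −17.9 to −14.1 (bidirectional). At a CpG ratio of 0.75 or more, 122 sites remained, with −0.95 (GC), −6.04 (protein-coding) and −3.425 (repeats). With the ratio in 500 bp, 477 sites had no peak, with −18.0 (protein-coding) and −0.65 (repeats). With GENCODE start sites, 902 had none, with −2.95 (GC), −28.0 (protein-coding) and −1.925 (repeats), and the gene length difference was −9286 bp. The repeat difference was −2.575 with 1 kb, −1.9125 with 5 kb and −1.65 with a ratio of 0.6. With at least 95% unique 50-mers, 191 sites remained, with 1.21 (protein-coding, reversed), 0.342 (unique 50-mers, reversed by construction), −3.125 (repeats) and 1.27 (neighbour). With at least 50%, a limit chosen after seeing the data, the values were −2.7 (GC), −3.94 (protein-coding), −3.475 (repeats), −1.15 (unique 50-mers) and 7.04 (neighbour). Apart from the unique 50-mer reversal, the cause of these moves was not tested.

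Of the 27 gene lists with CpG-rich genes, 15 lay above the background. The points from the background changed sign, at q scores above 60, for GATA (49.4), WNT (43.3), collagen (25.8), meiotic prophase (4.80), microRNA (11.1) and Rik-named genes (−0.193) and for the 3 germ cell lists together (0.956). With each list alone they ranged from 11.2 to 16.6 for GATA, 4.33 to 6.61 for WNT, −3.36 to 18.5 for collagen, −3.36 to 6.61 for meiotic prophase, −0.950 to 5.68 for microRNA, −0.0267 to 7.89 for imprinted genes and −3.36 to 2.76 for the 3 germ cell lists, of which the main value was below 0 for all but the imprinted genes. With 1 kb histone (3.81) and microRNA genes (0.664) turned, with 5 kb basic helix-loop-helix (−2.11), undifferentiated spermatogonia (−2.11) and microRNA genes (0.297), and with at least 50% unique 50-mers microRNA genes (0.513). No paired analysis was possible because all results come from peak lists of 1 group, with no comparison between groups of samples.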
